A study of Mus musculus with 27 samples.

Results

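The imprinted growth genes Igf2, H19, Dlk1, Meg3, Mest, Peg3, Cdkn1c, Grb10, Phlda2 and Plagl1 were followed through 2 tables of mouse heart RNA. They were taken by name, from a list drawn up with earlier results of these data known. Each of the 10 was found in both tables, as 10 of 24025 genes in the bulk table and 10 of 19020 genes in the single-cell table.

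The study deleted the locus of Hand2os1 (also named Uph), a long noncoding RNA gene next to Hand2, which encodes a transcription factor of the developing heart, in C57BL/6 mice. Allele F (Hand2asF) lacks the full-length RNA gene, and allele D (Hand2asD) lacks its 3′ distal part. Poly(A) RNA was sequenced from E11.5 hearts as 3 Hand2asF/+ and 3 Hand2asF/F libraries, from E16.5 ventricles with 3 libraries of each of the same genotypes, and from 8-week cardiomyocytes with 5 Hand2as+/+, 2 Hand2asD/+ and 6 Hand2asD/D libraries. Cells of E11.5 hearts were also profiled singly, with 1 library of Hand2as+/+ and 1 of Hand2asF/F, each a pool of living cells (sorted with 7-Aminoactinomycin D) from 6 hearts. The embryonic bulk controls therefore carry 1 deleted allele, whereas the single-cell control carries none. Allele D was measured at 8 weeks only. The labels do not say how many hearts went into a bulk library, so p-values measure the spread between libraries, which may be in part technical.

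An imprinted gene is expressed mainly from the allele of 1 parent, and many such genes set the growth of the fetus. Igf2 encodes a fetal growth factor that signals through the type 1 IGF receptor, and it shares control elements with H19, a noncoding RNA expressed from the other parental allele. Cdkn1c, Grb10 and Phlda2 act as brakes on growth, and Plagl1 is a zinc finger transcription factor known to regulate other imprinted genes. RNA levels here sum both alleles, so the imprint itself was not measured.

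Sequences from RefSeq (build GRCm38.p6, the assembly behind mm10, which the submitters' processing notes name for the single cells) place the members on chromosomes 6, 7, 10, 11 and 12. H19 (chr7:142575530-142578146) and Igf2 (chr7:142650768-142666816) lie 72.6 kb apart, Cdkn1c and Phlda2 lie 40.5 kb apart on the same chromosome, and Dlk1 and Meg3 lie 77.7 kb apart on chromosome 12. Promoter windows of 300 bases, from 250 before to 50 after an annotated start, were found for 8 of the 10 members (15 windows; none for H19 and Cdkn1c). The palindrome GGGGCCCC, a known binding motif of the Plagl1 protein that reads the same on both strands, was searched in each window. It was found in 1 of the 15 member windows, that of Peg3, and in 1.08% of all 32851 windows. A match is a description of the letters and not evidence of binding. The Peg3 window is printed because it is the member window with the motif (capitals). The Phlda2 window, which lies inside the annotated span of the gene (chr7:143501545-143503145), is printed because Phlda2 had the lowest unadjusted p of the members between genotypes. Its 26 CG dinucleotides are in capitals, against a median of 7 over all windows.
Peg3 promoter window, chr7:6730370-6730669, minus strand: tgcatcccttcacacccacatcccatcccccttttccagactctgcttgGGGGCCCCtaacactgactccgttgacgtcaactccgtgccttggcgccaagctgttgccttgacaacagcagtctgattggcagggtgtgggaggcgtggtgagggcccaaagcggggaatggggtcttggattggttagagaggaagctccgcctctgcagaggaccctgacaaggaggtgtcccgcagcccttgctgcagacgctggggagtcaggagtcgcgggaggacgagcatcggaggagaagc
Phlda2 promoter window, chr7:143502475-143502774, minus strand: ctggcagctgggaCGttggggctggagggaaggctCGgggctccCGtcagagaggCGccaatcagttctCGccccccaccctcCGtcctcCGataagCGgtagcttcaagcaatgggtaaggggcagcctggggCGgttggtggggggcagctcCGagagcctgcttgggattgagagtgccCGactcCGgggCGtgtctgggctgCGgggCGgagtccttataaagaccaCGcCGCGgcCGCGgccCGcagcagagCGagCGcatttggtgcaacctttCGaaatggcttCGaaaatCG

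Some members also carry microRNAs inside their transcripts, and each is processed from the RNA of its host. RefSeq places 8 mature microRNAs inside H19, Igf2, Mest and Meg3, and the 8 seeds (bases 2 to 8) are all different. The 5′ arms from H19 and Mest and the 3′ arm from Igf2 are shown, as arms from the abundant hosts, with the seed in capitals. The separate entries Mir675, Mir483, Mir335 and Mir770 of the bulk table were listed at 0 in all 25 libraries, so only the host levels are described.
miR-675-5p, inside H19: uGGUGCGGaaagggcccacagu
miR-335-5p, inside Mest: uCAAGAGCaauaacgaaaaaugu
miR-483-3p, inside Igf2: uCACUCCUccccucccgucuu

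Bulk values are FPKM (fragments scaled for transcript length and library size), a unit that was inferred from the values and that no header names, so the read depth behind each value is unknown. Summed FPKM ran from 334194 to 586795 over the libraries, and 9495 to 11641 genes reached 1 FPKM. For Hand2os1 itself the 6 E11.5 libraries all read 0, and it stood at 0.37 to 1.4 FPKM in F/+ and at 0 in F/F at E16.5. At 8 weeks it stood at 6.9 to 13.5 FPKM in 4 +/+ libraries, at 5.25 and 6.17 in D/+ and at 0 to 2.67 in D/D. The library labelled +/+ replicate 5 listed it at 0 and so goes against its label. Hepatocyte markers summed to 224 FPKM in F/+ replicate 1 and 466 in F/F replicate 2 at E11.5 and to at most 44.5 in the other E11.5 libraries. The single-cell table held 2563 +/+ and 3469 F/F barcodes with medians of 13369 and 13403 UMIs (unique molecular identifiers, 1 per captured RNA molecule), and 18 barcodes occurred in both libraries.

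Between F/F and F/+ hearts, 0 of the 10 members passed the test at E11.5 (limma on log2(FPKM + 1), Benjamini-Hochberg adjusted p under 0.05 over 11491 genes) and 0 of 9 at E16.5. The background was as low: 0.00870% of all genes tested were called at E11.5 and 0.00935% at E16.5, 1 gene each time. That gene was Mir6236, listed at 0 in 1 genotype at each stage, higher in F/F at E11.5 and lower in F/F at E16.5. At an unadjusted p under 0.05, 2 members (Mest and Phlda2) and 502 of all genes were counted at E11.5, and 0 members and 281 genes at E16.5. In bulk libraries fewer cells of a type and less RNA per cell cannot be told apart, and because the counting of strands is not given in the sources used here, reads of Igf2, Peg3, Mest, Meg3 and Plagl1 cannot be told apart from those of genes that overlap them. The plot of members by library shows the 3 stages side by side.

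**Figure D1:**
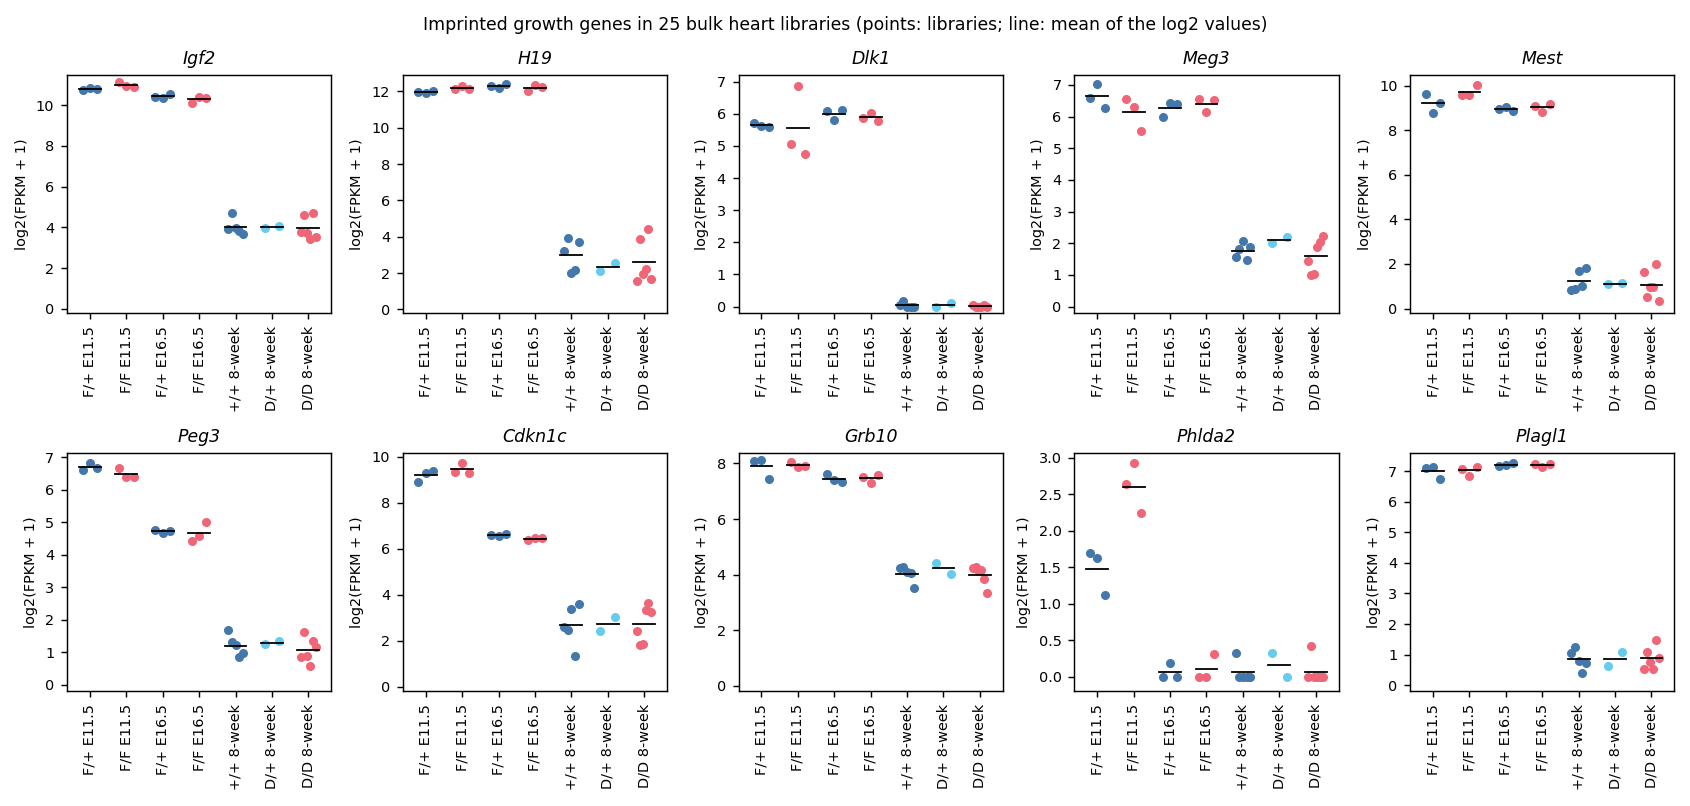
Level of each of the 10 imprinted growth genes, as log2(FPKM + 1) on the vertical axis, in each of the 25 bulk libraries grouped by stage and genotype on the horizontal axis (points are libraries and lines are the mean of the log2 values). Homozygous and control libraries overlap for most members, Phlda2 at E11.5 is above control in all 3 F/F libraries (3.75 to 6.59 against 1.18 to 2.25 FPKM), and levels at 8 weeks are far below those of the embryo.

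Igf2, the growth factor, stood at 1714, 1858 and 1774 FPKM in the 3 F/+ E11.5 hearts while the 3 F/F hearts held 2213, 1965 and 1914 FPKM. The 3 F/F libraries were all above the 3 F/+ libraries, with means of 2030 ± 160 against 1782 ± 72.0 FPKM (SD, n = 3). The difference was 0.19 on the log2(FPKM + 1) scale (SE 0.14), with a limma adjusted p of 0.999. H19, its noncoding neighbour, was at 3963, 3789 and 4142 FPKM in F/+ and at 4525, 4977 and 4469 FPKM in F/F, again without overlap (0.23, SE 0.15, limma adjusted p = 0.999). As a share of the summed FPKM of each library, however, both genes overlapped between genotypes. By that share F/F replicate 1 was above all 3 F/+ libraries, and F/F replicates 2 and 3 were below them. Igf2, H19 and Phlda2 were the 3 members whose F/F libraries all lay above the F/+ libraries at E11.5, and 4.93% of all genes tested did the same. No member lay wholly below, against 4.31% of all genes. The 11 cardiomyocyte markers were ordered the same way, with sums of 11315 to 13481 FPKM in F/+ and 13632 to 15606 FPKM in F/F. The sums of endothelial and endocardial, compact ventricular and atrial markers were ordered this way too. The neural crest sum lay wholly below in F/F, and the epicardial, cushion mesenchyme and erythroid sums overlapped. The part of these cell types in the members' values was not tested. The 2 neighbours kept a narrow ratio to each other, and H19 stood at 2.04 to 2.53 times Igf2 in FPKM over the 6 E11.5 libraries.

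At E16.5 the libraries of the 2 genotypes were mixed for both genes. Igf2 was at 1365, 1320 and 1505 FPKM in F/+ ventricles and at 1115, 1348 and 1304 FPKM in F/F, so the genotypes overlapped (−0.16, SE 0.11). H19 was at 4946, 4611 and 5342 FPKM in F/+ and at 4205, 5263 and 4799 FPKM in F/F (−0.07, SE 0.12). H19 was 3.49 to 3.90 times Igf2 in the 6 E16.5 libraries, above the whole E11.5 range, and the stage and the tissue (heart or ventricle) cannot be told apart in that contrast. The effect of F was 0.34 lower for Igf2 at E16.5 than at E11.5 on the log2 scale (SE 0.16), and that difference had a limma adjusted p of 0.999. No member passed the test of a difference between stages (0 of 10), where 0.00875% of 11423 genes did. Only Phlda2 had an unadjusted p under 0.05 there, as did 493 of all genes.

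The Dlk1 and Meg3 pair varied more among the E11.5 libraries. Dlk1, a membrane protein related to the Notch ligands, was at 51.8, 48.2 and 47.2 FPKM in the F/+ E11.5 hearts whereas the F/F hearts held 32.4, 117 and 26.0 FPKM. A single library, F/F replicate 2, stood far above the others, and it is the library with the highest sum of hepatocyte markers. The 13 hepatocyte-like cells found among the +/+ single cells held 3238 CPM (UMI counts scaled to a common total per class) of Dlk1, the highest level of any class, although so few cells enter no comparison. The fitted difference was −0.08 (SE 0.44), and −0.70 when both libraries with hepatocyte markers of 100 FPKM or more were left out, a choice made after seeing the data. The part of liver RNA in the Dlk1 values was not tested beyond that. Meg3, a noncoding RNA, was at 96.1, 129 and 76.9 FPKM in F/+ and at 92.5, 78.7 and 46.1 in F/F at E11.5 (−0.50, SE 0.27, limma adjusted p = 0.999). At E16.5, Dlk1 was at 66.7, 54.6 and 68.4 FPKM in F/+ and at 57.5, 64.1 and 53.6 in F/F, and Meg3 was at 62.2, 85.2 and 83.7 against 92.7, 69.7 and 91.0. Both genes overlapped between genotypes at both stages.

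Mest, an enzyme of the alpha/beta hydrolase fold family, was at 787, 432 and 593 FPKM in F/+ and at 767, 764 and 1029 FPKM in F/F at E11.5. The genotypes overlapped through F/+ replicate 1, and the difference of 0.53 (SE 0.22) did not pass (unadjusted p = 0.0377, limma adjusted p = 0.999). At E16.5 Mest was at 497, 530 and 462 FPKM in F/+ and at 549, 453 and 574 in F/F (0.08, SE 0.11). Peg3, a zinc finger protein, was at 97.3, 112 and 100.1 FPKM in F/+ and at 101, 82.2 and 82.1 in F/F at E11.5, and at 26.3, 24.7 and 25.5 against 20.5, 23.1 and 31.4 FPKM at E16.5. Plagl1 was among the steadiest members, at 105 to 140 FPKM in F/+ and 115 to 141 in F/F at E11.5, and at 144 to 152 against 139 to 150 at E16.5. Neither Peg3 nor Plagl1 was separated by genotype at either stage.

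Among the brakes on growth, Phlda2, a small pleckstrin homology domain protein best known from the placenta, was the member furthest apart. It was at 2.25, 2.09 and 1.18 FPKM in the F/+ E11.5 hearts whereas the F/F hearts held 5.27, 6.59 and 3.75 FPKM. All 3 F/F libraries were above all 3 F/+ libraries, and the F/F mean was 2.83 times the F/+ mean (5.20 ± 1.42 against 1.84 ± 0.577 FPKM, SD, n = 3). The difference was 1.12 on the log2(FPKM + 1) scale (SE 0.32), the 64th smallest p of 11491 genes, and its limma adjusted p was 0.999. At E16.5 Phlda2 was listed at 0 in 4 of 6 libraries and at 0.14 and 0.24 FPKM in the others, so it was not tested there. Cdkn1c, an inhibitor of cyclin-dependent kinases, was at 486, 622 and 671 FPKM in F/+ and at 644, 865 and 639 in F/F at E11.5 (0.27, SE 0.18). Without both libraries with hepatocyte markers that difference was −0.01.

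At E16.5 Cdkn1c was at 96.9, 93.2 and 99.0 FPKM in F/+ and at 81.6, 88.0 and 88.5 FPKM in F/F. It was the 1 member of 9 tested whose F/F libraries all lay below the F/+ libraries (−0.16, SE 0.07, unadjusted p = 0.0596, limma adjusted p = 0.9999), and 2.88% of all genes did so. No member lay wholly above, against 3.90% of all genes. Y-linked transcripts summed to 4.82 to 5.67 FPKM in all 3 F/F libraries and 1 F/+ library at E16.5 and to at most 0.03 FPKM in the other 2 F/+ libraries. Their part in the difference was not tested beyond a fit with a Y-linked covariate. The closing section gives that fit for other members and not for Cdkn1c. Grb10, an adaptor that dampens insulin and IGF receptor signalling, was at 175 to 282 FPKM in F/+ and 232 to 263 in F/F at E11.5, and at 159 to 197 against 155 to 193 FPKM at E16.5. Its genotypes overlapped at both stages.

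In 8-week cardiomyocytes every member was at or below 25.1 FPKM, and D/D libraries overlapped the 7 controls (+/+ and D/+ together) for each of them. Of the 7 members that passed the filter (a mean of at least 1 FPKM), 0 were called, as were 0 (0%) of 10249 genes by limma, with 175 genes and 0 members at an unadjusted p under 0.05. No member's D/D libraries lay wholly above or below the controls, against 0.0195% of genes above and 0.00976% below. Igf2 ran from 11.8 to 25.1 FPKM in controls (median 14.6) and from 9.77 to 24.7 in D/D (median 12.4). H19 ran from 3.04 to 14.4 FPKM in controls (median 4.91) and from 1.97 to 20.8 in D/D (median 3.28). Exact two-sided permutation tests over 1716 splits gave p = 0.815 for Igf2 and p = 0.743 for H19, and p-values from 0.276 (Meg3) to 1 (Phlda2) over the 10 members.

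The growth brakes and the other members showed the same overlap at 8 weeks. Grb10 ran from 10.5 to 20.6 FPKM in controls and 9.01 to 18.2 in D/D, and Cdkn1c from 1.53 to 11.1 and from 2.52 to 11.4. Meg3 ran from 1.75 to 3.64 against 1.01 to 3.72 FPKM, Mest from 0.79 to 2.58 against 0.25 to 3.02, and Peg3 from 0.79 to 2.20 against 0.50 to 2.10. Plagl1 did not reach the filter, at 0.32 to 1.37 FPKM in controls and 0.45 to 1.79 in D/D. Dlk1 was listed at 0 in 4 of 7 controls and 4 of 6 D/D libraries, and Phlda2 in 5 of 7 and 5 of 6. The 13 libraries split into 2 sets on the first principal component (44.7% of the variance of all genes), and the smaller set held the library labelled +/+ replicate 5 and D/D replicates 4, 5 and 6. Leaving out any 1 library, that one included, left the number of members called at 0.

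The spread of Cdkn1c among 8-week libraries followed the level of endothelial genes, though not of these alone. Cdkn1c was lowest, at 1.53 FPKM, in +/+ replicate 4, where 10 endothelial and endocardial markers summed to 111 FPKM, and highest, at 11.4 FPKM, in D/D replicate 5, where they summed to 508 FPKM. Over the 13 libraries Pearson's r was 0.917 (permutation p = 1e-05, the smallest that 100000 resamples can give, adjusted p = 2.8e-04 over 28 relations) and Spearman's rho was 0.940 (permutation p = 2e-05, adjusted p = 5.6e-04). Without the 2 libraries farthest from the median marker sum r was 0.912, and it was 0.982 within the 7 controls, 0.862 within the 6 D/D libraries and 0.907 within the larger of the 2 sets (9 libraries); the smaller set holds too few libraries (4). The 28 relations are the 7 members tested against 4 marker sums, and they were chosen after the values were seen. Sums of other cell types were not tested. The outflow and second heart field sum had its extremes in the same libraries, at 34.8 FPKM in +/+ replicate 4 and 158 in D/D replicate 5. Cdkn1c also followed the epicardial sum (rho = 0.879, adjusted permutation p = 0.00308), and Meg3 passed for the endothelial sum by rho (0.769, adjusted permutation p = 0.0306) but not by r (0.629, adjusted permutation p = 0.162). H19 and the endothelial sum had r = 0.446 (adjusted permutation p = 0.261) and rho = 0.280 (adjusted permutation p = 0.584).

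**Figure D2:**
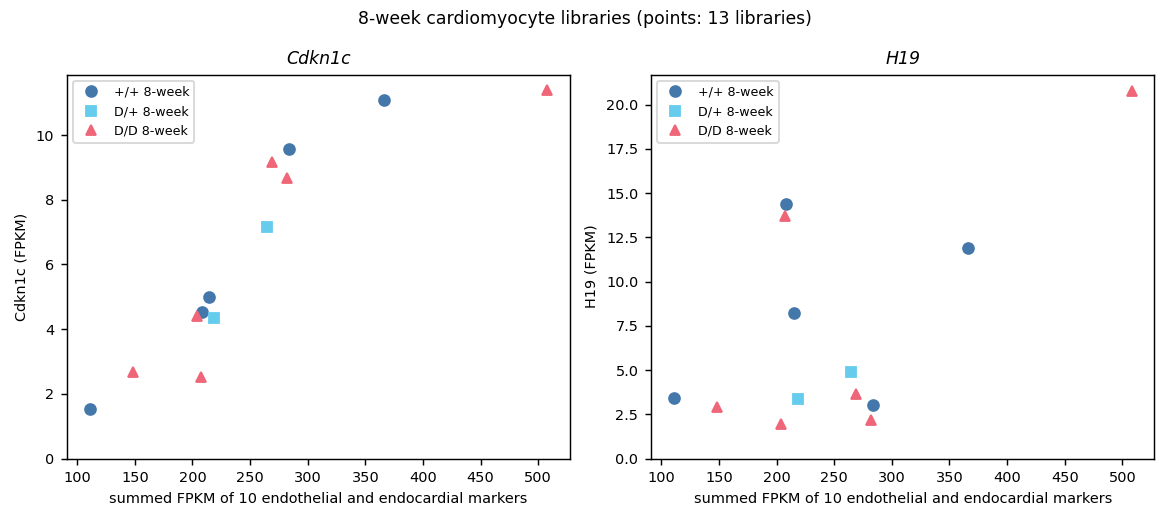
Cdkn1c (left) and H19 (right) in FPKM on the vertical axis against the summed FPKM of 10 endothelial and endocardial markers on the horizontal axis, in the 13 libraries of 8-week cardiomyocytes (circles +/+, squares D/+, triangles D/D). Cdkn1c climbs with the marker sum from 1.53 FPKM at 111 to 11.4 FPKM at 508 in all 3 genotypes (r = 0.917), and H19 shows a looser pattern (r = 0.446).

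Between stages, in control libraries only, 2 members were called lower from E11.5 to E16.5 and the others were not called. The fit also held the 7 controls of 8 weeks, so their spread entered the test between the embryonic stages. Members that were not called can still be apart in FPKM. Igf2 ran from 1714 to 1858 FPKM in F/+ at E11.5 and from 1320 to 1505 at E16.5. H19 ran from 3789 to 4142 and from 4611 to 5342 FPKM. H19 was the 6th most abundant of 24025 genes by mean FPKM in F/+ E11.5 hearts and the 2nd in F/+ E16.5 ventricles, and Igf2 was the 13th and the 19th. Cdkn1c fell from 593 ± 96.1 to 96.4 ± 2.97 FPKM (SD, n = 3), 6.15-fold lower, from rank 69 to rank 500 (−2.60, SE 0.42, limma adjusted p = 1.54e-04). Peg3 fell from 103 ± 7.83 to 25.5 ± 0.820 FPKM (SD, n = 3), 4.04-fold lower (−1.97, SE 0.19, limma adjusted p = 1.53e-06). Cell markers moved in both directions. By limma, 6 of 9 epicardial markers were called lower and 1 higher (median −1.43), and 5 of 10 endothelial and endocardial markers lower (−0.65). Cushion mesenchyme markers were called 4 lower and 3 higher, adult fibroblast markers 1 and 3, and cardiomyocyte markers 2 and 4. Erythroid markers were called lower in 8 of 9 (−5.10). Erythroid-like single cells at E11.5 held little Cdkn1c (22.0 and 40.7 CPM in +/+ and F/F) or Peg3 (17.4 and 22.7). The part of cell makeup in the fall of Cdkn1c and Peg3 was not tested. Of 9 members tested, 0 were called higher and 2 lower, where 17.4% of 11446 genes were called higher and 29.5% lower, so the share of members called is no larger than the background. The fitted changes of the others were −0.35 for Igf2, 0.32 for H19, 0.35 for Dlk1 (adjusted p = 0.0555 with limma), −0.37 for Meg3, −0.24 for Mest, −0.44 for Grb10 and 0.22 for Plagl1. The median change of all genes was −0.15 as deposited and 0.03 after median-ratio scaling, which moved the calls from 1991 higher and 3381 lower to 2657 and 2476. Cdkn1c and Peg3 were called lower under both scalings, and Dlk1 was then called higher (0.56 and 0.58, limma adjusted p = 0.00520 and 0.00403). Without the library labelled +/+ 8-week replicate 5, Dlk1 (higher) and Grb10 (lower) were called too, as 4 members in all. Without +/+ 8-week replicate 2, Igf2 was called lower (−0.35, limma adjusted p = 0.0457).

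At 8 weeks the same 9 members were all lower than in E16.5 ventricles, by 3.36 (Grb10) to 9.46 (H19) on the log2(FPKM + 1) scale, and 9 of 9 were called by limma with adjusted p-values of at most 1.61e-07. Of all 11446 genes, 25.3% were called higher and 45.9% lower, and median-ratio scaling moved these calls from 2897 higher and 5258 lower to 4131 and 3659 with all 9 members still called. This comparison shares the E16.5 F/+ libraries with the one before. Dlk1 and Plagl1, at 0.037 and 0.833 FPKM in 8-week controls, passed the filter of 1 FPKM only through the embryonic libraries, so their calls add nothing beyond their values. H19 was at 4967 ± 366 FPKM (SD, n = 3) in F/+ E16.5 and 7.03 ± 4.57 (SD, n = 7) in 8-week controls, and it went from 2nd to 4754th among genes in the +/+ libraries. Igf2 went from 1397 ± 96.8 to 15.6 ± 4.41 FPKM, which left H19 at 0.155 to 1.01 times Igf2 over the 13 libraries. Grb10, at 16.3 ± 3.13 FPKM (SD, n = 7), was then close to Igf2. The stage, the tissue, the cell preparation and the controls' alleles cannot be told apart here. The tables of the 3 stages also differ in genes that all cells use: Gapdh ran from 0.12 to 5.09 FPKM in the embryonic libraries and from 980 to 2529 FPKM at 8 weeks, and Ppia was listed at 0 in all 12 embryonic libraries. Whether part of the members' difference has the same source was not tested.

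The other imprinted genes (58 listed) and the IGF pathway (31 listed) set the members in context. No gene of either list was called between genotypes at any stage, of 39, 36 and 29 imprinted and 25, 24 and 20 IGF genes tested at E11.5, E16.5 and 8 weeks by limma. At an unadjusted p under 0.05 the counts were 0, 3 and 2 imprinted and 1, 0 and 1 IGF genes. Their median log2 differences at E11.5 were −0.03 and 0.04, beside 0.12 for the members and 0.02 for all genes. Igf2r, the receptor that clears the Igf2 protein, was at 247 ± 58.8 FPKM in F/+ and 263 ± 71.5 in F/F at E11.5 (SD, n = 3), and at 176 ± 12.7 and 166 ± 33.5 at E16.5. Gnas, which encodes a G protein subunit, was at 732 ± 95.2 and 793 ± 18.2 FPKM in F/+ and F/F at E11.5.

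From E11.5 to E16.5, 16 other imprinted genes were called lower and 5 higher of 38 tested. Of all genes, 29.5% were called lower and 17.4% higher. The imprinted genes called lower included Nnat, which encodes a small membrane proteolipid, from 142 ± 35.9 to 7.59 ± 0.502 FPKM (SD, n = 3), Zim1 from 18.6 ± 5.73 to 1.07 ± 0.286, and Peg10, a gene derived from a retrotransposon, from 48.7 ± 18.1 to 8.79 ± 0.786. Those higher included the potassium channel gene Kcnq1, from 3.60 ± 0.870 to 21.9 ± 1.77 FPKM, and Ddc, which encodes a decarboxylase, from 14.3 ± 4.98 to 57.7 ± 9.87. In the IGF list 7 genes were called lower and 6 higher of 25. Binding proteins went both ways, with Igfbp5 falling from 357 ± 47.2 to 110 ± 4.33 FPKM and Igfbp2 from 57.0 ± 28.8 to 15.9 ± 1.36, while Igfbp3 rose from 12.7 ± 1.61 to 29.6 ± 0.468. Igf2bp1 and Igf2bp2, RNA-binding proteins named for binding Igf2 mRNA, fell from 37.8 ± 11.7 to 8.52 ± 0.210 and from 60.8 ± 15.7 to 16.1 ± 0.861 FPKM (limma adjusted p = 1.84e-06 and 4.91e-05). From E16.5 to 8 weeks 12 other imprinted genes were called higher and 19 lower of 38, where 25.3% of all genes were called higher and 45.9% lower. The matrix proteoglycan gene Dcn rose from 1.14 ± 0.251 to 39.4 ± 21.0 FPKM and Ndn fell from 31.5 ± 0.382 to 2.16 ± 0.525. In the IGF list 7 were called higher and 14 lower of 25, with Igfbp7 rising from 13.8 ± 0.889 to 111 ± 37.4 FPKM and Igfbp4 falling from 211 ± 4.55 to 23.2 ± 7.94 (n = 3 and 7).

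Single cells showed where in the E11.5 heart each member was expressed. After filters 5871 cells remained (2503 +/+ and 3368 F/F) in 18 clusters, which were built without the 10 members and without the other imprinted genes and then named from marker genes. Levels are sums of UMIs over the cells of a class, as CPM of the class total, given first for +/+ and then for F/F. With 1 pooled library a genotype there is no test between genotypes, and 95% intervals cover counting error only. A class is called clear of the next in order where both its libraries lie above both libraries of the next. Classes under 20 cells in a library, the megakaryocyte-like and hepatocyte-like cells, were left out of the order, so "highest" refers to the other classes. The class called atrial cardiomyocyte-like is led by Shox2, a sinus venosus gene, and holds 35 and 75 cells. Erythroid-like cells, in which most members were low, are given beside shares of cells with a UMI.

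**Figure D3:**
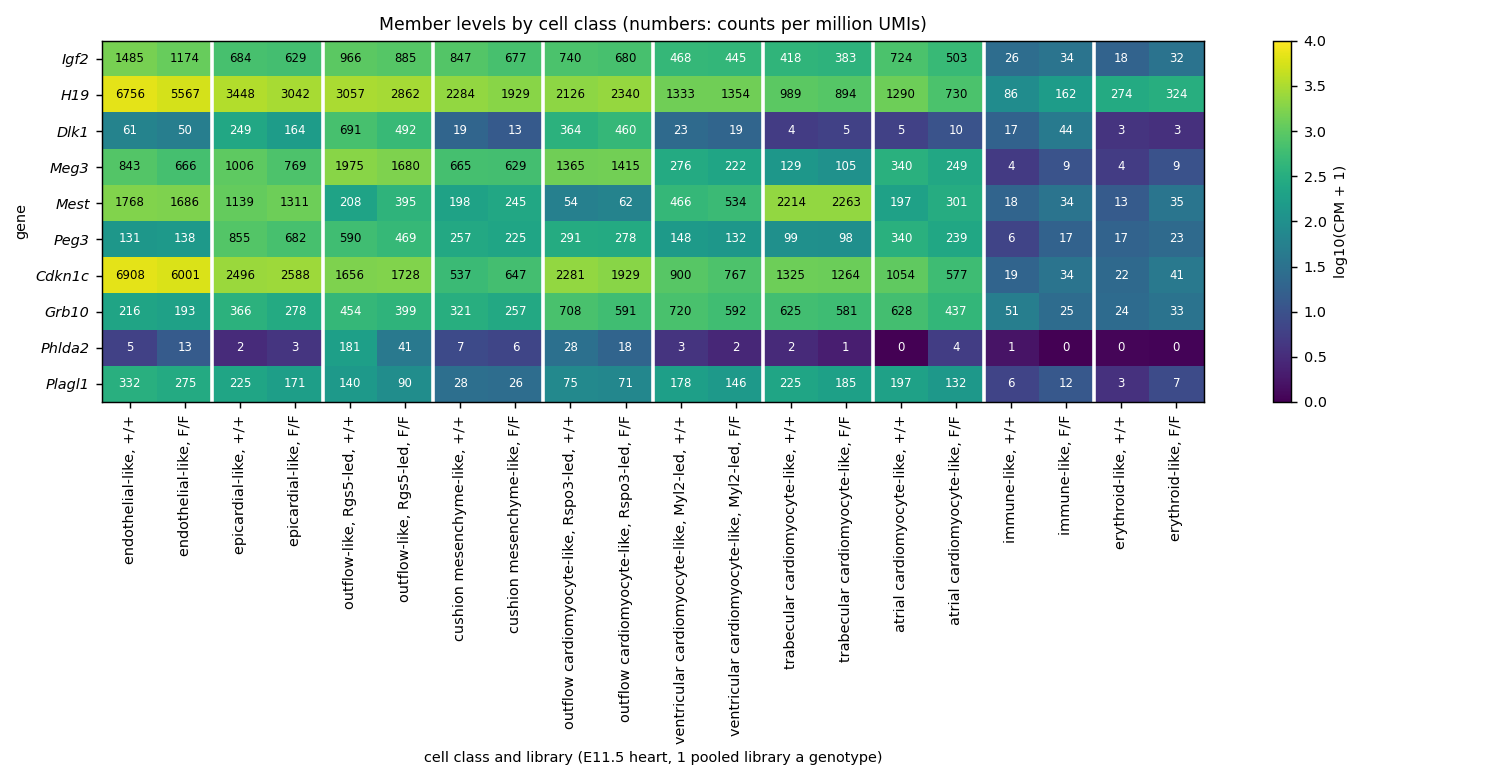
Level of each member (vertical) in each cell class compared and each library of the E11.5 heart (horizontal), with CPM printed in each cell and coloured by log10(CPM + 1). Among these classes, endothelial-like cells hold the most Igf2, H19, Cdkn1c and Plagl1, Rgs5-led outflow-like cells the most Dlk1, Meg3 and Phlda2, and immune-like and erythroid-like cells the least of most members. The few hepatocyte-like cells, which held more Dlk1, are not among them.

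Endothelial-like cells (193 and 286 cells) held the highest level of 4 members. Igf2 was at 1485 and 1174 CPM there, clear of Rgs5-led outflow-like cells at 966 and 885, and stood at 418 and 383 CPM in trabecular cardiomyocyte-like cells and 17.9 and 31.9 in erythroid-like cells. The middle of the Igf2 order, cushion mesenchyme-like, Rspo3-led outflow, epicardial-like and atrial cells, was not clear between neighbours (503 to 847 CPM). H19 was at 6756 and 5567 CPM in endothelial-like cells, clear of epicardial-like cells at 3448 and 3042, and at 989 and 894 CPM in trabecular cells. Cdkn1c was at 6908 and 6001 CPM, 2.54 times the next class, the epicardial-like cells (2496 and 2588). Plagl1 was at 332 and 275 CPM, clear of the trabecular, epicardial-like, atrial and ventricular cells, which were not clear of each other (132 to 225 CPM). All cells of the endothelial-like class with 5000 UMIs or more, 180 and 266 cells, held H19 when thinned to 5000 UMIs, beside 66.2% and 76.2% of erythroid-like cells, whose median depths were 10907 and 11651 UMIs against 11652 and 11999.5.

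Among the classes compared, Dlk1, Meg3 and Phlda2 were highest in the outflow-like cells. Dlk1 was at 691 and 492 CPM in Rgs5-led outflow-like cells (80 and 79 cells), clear of Rspo3-led outflow cardiomyocyte-like cells at 364 and 460, and of epicardial-like cells at 249 and 164. All other classes in the order held at most 61.1 CPM of Dlk1. Meg3 had the same first 3 classes, at 1975 and 1680, 1365 and 1415, and 1006 and 769 CPM. Its level in endothelial-like cells (843 and 666 CPM) was not clear of the epicardial-like cells. The Meg3 to Dlk1 ratio of UMIs was thus 2.86 and 3.42 in the Rgs5-led class and 34.6 and 49.3 in cushion mesenchyme-like cells. Phlda2 was at 181 and 40.8 CPM in the Rgs5-led class, 28.5 and 18.4 in the Rspo3-led class and at most 12.9 elsewhere.

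Mest, Peg3 and Grb10 each had their own order. Mest was highest in trabecular cardiomyocyte-like cells at 2214 and 2263 CPM, clear of endothelial-like cells at 1768 and 1686 and epicardial-like cells at 1139 and 1311. With clustering at a Leiden resolution of 0.5, endothelial-like cells came first for Mest instead. It was at 53.8 and 61.6 CPM in Rspo3-led outflow cardiomyocyte-like cells, the lowest of the cardiomyocyte classes. Peg3 was highest in epicardial-like cells at 855 and 682 CPM, clear of the Rgs5-led class at 590 and 469. Grb10 was highest in the cardiomyocyte classes, at 720 and 592 CPM in Myl2-led ventricular, 708 and 591 in Rspo3-led outflow, 625 and 581 in trabecular and 628 and 437 in atrial cells. No neighbours among those 4 classes were clear of each other, and 3 of the alternatives tried put the Rspo3-led class first. Endothelial-like cells, first for Igf2, came 8th of 10 for Grb10 at 216 and 193 CPM.

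Neighbours in the genome did not share one pattern over classes. The H19 to Igf2 ratio of UMIs was 3.54 and 3.75 over all cells, between 1.78 and 1.45 in atrial cells and 5.04 and 4.83 in epicardial-like cells, and 15.3 and 10.2 in erythroid-like cells. Across the 20 class and library sums, as a description over points that share 2 libraries, log2(CPM + 1) of Igf2 and H19 had a Pearson correlation of 0.92, Dlk1 and Meg3 of 0.67, and Cdkn1c and Phlda2 of 0.57. The closest pair was Igf2 and Meg3 (0.96) and the least alike was Dlk1 and Mest (0.08). Among 5141 genes with a mean of at least 20 CPM, the one most like Igf2 was Maged2 (0.99), most like H19 Sdpr (0.95), most like Dlk1 Itm2a (0.87), most like Meg3 Rbms3 (0.98) and most like Mest the gap junction gene Gja1 (0.91). For Peg3 it was Aebp1 (0.96), for Cdkn1c Tmem108 (0.97), for Grb10 Samd4 (0.99), for Phlda2 the elastin gene Eln (0.92) and for Plagl1 Smtnl2 (0.96). The third gene most like H19 was another member, Cdkn1c (0.94).

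Between the F/F and the +/+ library most member levels were within 1.5-fold. Of 76 pairs of a member and a class with at least 200 UMIs, which covered 9 members, 7 were at least 1.5-fold higher and 4 at least 1.5-fold lower in F/F, where 1.13% and 1.90% of 33503 pairs of all genes were. The median log2 ratio of the 76 pairs was −0.15. The 7 higher and 4 lower pairs lay in few classes, as the plot of ratios shows.

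**Figure D4:**
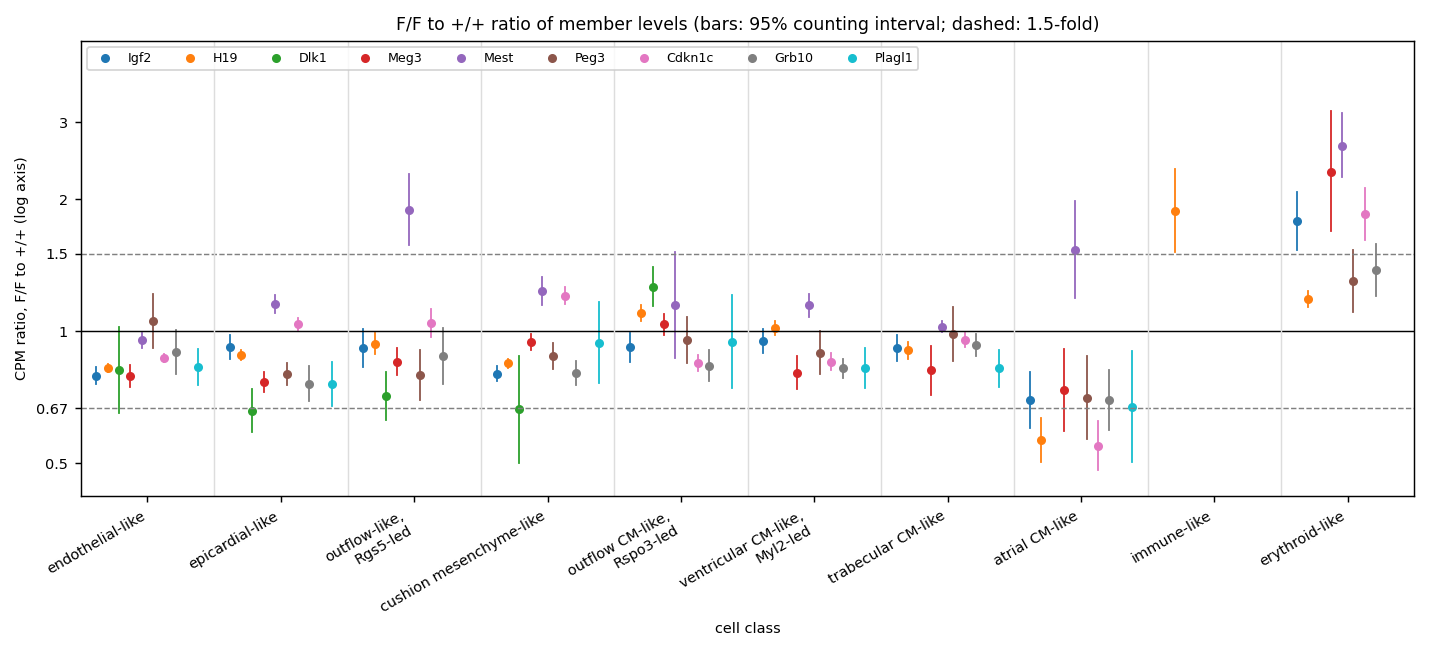
Ratio of the F/F to the +/+ level (CPM, log axis) of 9 members in 10 cell classes of the E11.5 heart, for pairs with at least 200 UMIs, with bars for the 95% counting interval and dashed lines at 1.5-fold in each direction. Erythroid-like cells lie above 1 for all 7 members shown, atrial cardiomyocyte-like cells lie below 1 for 7 of 8, and Mest lies above 1 in 8 of 9 classes.

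In erythroid-like cells 4 members were past 1.5-fold, all higher in F/F and all at low levels. Igf2 went from 17.9 to 31.9 CPM (ratio 1.78, interval 1.53 to 2.07), Meg3 from 4.05 to 9.33 (2.30, 1.69 to 3.17), Mest from 13.1 to 34.7 (2.65, 2.24 to 3.15) and Cdkn1c from 22.0 to 40.7 (1.85, 1.62 to 2.12). In the same cells 11 cardiomyocyte markers summed to 360 CPM in +/+ and 768 in F/F (ratio 2.13, 2.07 to 2.20), 9 epicardial markers gave a ratio of 2.14 and 10 endothelial markers 2.04. The part of other cells' RNA in the members' ratios was not tested. In immune-like cells H19 went from 86.2 to 162 CPM (1.88, 1.51 to 2.34), and there the cardiomyocyte sum went from 338 to 754 CPM (2.23). Of all genes with enough UMIs in erythroid-like cells, 116 were past 1.5-fold higher and 31 lower of 4208.

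Outside the blood classes 6 pairs were past 1.5-fold. Atrial cardiomyocyte-like cells had less H19 in F/F, at 1290 against 730 CPM (0.565, 0.504 to 0.635), less Cdkn1c, at 1054 against 577 (0.547, 0.481 to 0.623), and more Mest, at 197 against 301 (1.53, 1.19 to 1.99). Of the 80 Mest UMIs in +/+ atrial cells, 61 came from 1 cell and 78 from 5 of the 35 cells. The Mest ratio was 2.36 after thinning and 1.30, short of 1.5-fold, with the members among the variable genes. In the same class 6 trabecular markers were at 2.54 times their +/+ sum and 7 outflow markers at 0.666 times, and the part of these other cells in the members' ratios was not tested. Dlk1 was lower in F/F in epicardial-like cells, at 249 against 164 CPM (0.659, 0.588 to 0.738), and in cushion mesenchyme-like cells, at 19.2 against 12.7 (0.663, 0.4995 to 0.877). Hepatocyte-like cells, in which Dlk1 was highest, occurred in the +/+ library only (13 and 0 cells). The part of their RNA in the Dlk1 ratios was not tested. The cushion value rested on few cells: 59 of its 120 +/+ UMIs came from 5 of 449 cells, and after thinning 23 of 429 +/+ cells (5.36%) and 31 of 477 F/F cells held a UMI, a larger share in F/F. The cushion ratio was 0.716 to 0.799 under 5 of 6 alternatives, short of 1.5-fold. The share of epicardial-like cells with a Dlk1 UMI after thinning was 62.0% of 150 in +/+ and 42.9% of 247 in F/F (unthinned 87.3% and 71.0%), beside 1.94% and 1.11% of erythroid-like cells. Mest was higher in F/F in the Rgs5-led outflow-like cells, at 208 against 395 CPM (1.89, 1.57 to 2.28). That ratio was 1.56 after thinning and 1.97 with the members among the variable genes.

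Below the 1.5-fold line the members differed in direction. Mest was above 1 in 8 of 9 classes, with 6 counting intervals wholly above 1 and endothelial-like cells as the exception (0.954, 0.917 to 0.992). Its bulk E11.5 hearts also had the higher mean in F/F, although against F/+ controls and without passing the test. Igf2 and H19, higher in FPKM in all 3 bulk F/F libraries at E11.5, went mostly the other way in single cells. Igf2 was above 1 in 1 of 9 classes, with 6 intervals wholly below 1 and 1 above. H19 was above 1 in 4 of 10 classes, with 6 intervals below 1 and 3 above. Plagl1 was below 1 in the 7 classes with 200 UMIs or more (0.672 to 0.946). Under that floor it was 0.642 in the Rgs5-led class but 2.68 in erythroid-like cells (interval 1.85 to 3.98, 37 and 131 UMIs) and 2.06 in immune-like cells (0.856 to 5.28). Grb10 was below 1 in 8 of 9 classes, with erythroid-like cells as the exception (1.38). Meg3 was below 1 in 7 of 9 classes, with all 7 intervals below 1. Counting intervals say nothing of the spread between hearts, so these directions compare 2 libraries and not the genotypes.

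Phlda2 had few UMIs in the single cells, and its F/F to +/+ ratio lay below 1 in some classes and above 1 in others. In the Rgs5-led class it had 159 UMIs in +/+ and 34 in F/F, a ratio of 0.225 (interval 0.151 to 0.328), below the 200 UMIs set for the counts above. Of the 159 UMIs, 122 came from 5 cells and 67 from 1 cell, and 20 of 80 and 11 of 79 cells held any. In endothelial-like cells Phlda2 had 12 UMIs in +/+ and 46 in F/F (2.56, 1.33 to 5.31), 32 of the 46 in 5 cells. In bulk E11.5 hearts it was higher in all 3 F/F libraries, with F/+ and not +/+ as the control. Whether the 2 kinds of data differ was not tested.

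Cdkn1c is a cell cycle inhibitor, and the cells that lacked its RNA were compared with those that held it, within a class and at 5000 UMIs. In Myl2-led ventricular cells of F/F, 25 cells without a Cdkn1c UMI had a mean of 19.9 UMIs of 28 proliferation genes and 371 cells with one had 14.9. In F/F atrial cells the means were 11.4 (22 cells) and 8.71 (48 cells). In cushion mesenchyme-like cells, with many more cells on each side, they were 17.2 and 16.9 in +/+ and 17.7 and 16.2 in F/F. The share of cushion cells with a UMI of Mki67, a gene of dividing cells, had the opposite order, at 18.5% without and 21.6% with Cdkn1c in +/+ and 19.2% and 21.3% in F/F. In the other classes that share was higher without Cdkn1c. It was 22.7% against 12.5% in F/F atrial cells and 28.0% against 26.7% in F/F Myl2-led cells. In erythroid-like cells it was 44.3% against 43.3% in +/+ and 47.1% against 40.6% in F/F. The mean UMIs of the 28 proliferation genes in erythroid-like cells were 10.6 without and 10.3 with Cdkn1c in +/+, with the same order in F/F. These are descriptions over cells of 1 library each. The endothelial-like class was itself uneven, since its Emcn-led cluster held 10856 and 11823 CPM of Cdkn1c and its other cluster 4074 and 3113.

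IGF pathway genes in the same cells placed ligand and receptors apart. Igf1, the other IGF ligand, was highest in cushion mesenchyme-like cells at 307 and 293 CPM, whereas Igf2 peaked in endothelial-like cells. Igf1r, the signalling receptor, was highest in Myl2-led ventricular cells at 101 and 86.7 CPM, and Igf2r in trabecular cells at 611 and 520. Binding proteins differed too, with Igfbp4 highest in endothelial-like cells (654 and 591 CPM), Igfbp7 in cushion cells (545 and 551) and Igfbp5 in the atrial class (1906 and 1301). Of 96 IGF pairs 3 were past 1.5-fold higher and 2 lower in F/F, and of 133 pairs of other imprinted genes 2 were higher and 4 lower. The lower ones included Usp29, the neighbour of Peg3, in epicardial-like (0.529) and cushion mesenchyme-like cells (0.607). The ratios of Peg3 itself were 0.798 (interval 0.753 to 0.845) and 0.877 (0.818 to 0.940) in those classes.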

How the data were processed

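The 27 samples were 25 bulk libraries and 2 single-cell libraries. The deposited bulk values were read as FPKM made by the authors with TopHat2 2.0.11 on mm9, and the deposited single-cell values are UMI counts from Cell Ranger on mm10 (barcode endings WT and KO give the library), per the submitters' processing notes; the bulk unit was inferred from the values, and raw reads were not used. Bulk comparisons used limma 3.58.1 with a trend on log2(FPKM + 1), keeping genes whose mean reached 1 FPKM, and p-values were Benjamini-Hochberg adjusted over all genes of a fit. Replicate numbers do not pair the libraries. Barcodes with at least 500 genes were clustered in scanpy 1.11.5 (30 components, 15 neighbours, Leiden resolution 1.0) without members or other imprinted genes. The doublet caller marked 6 barcodes by its own threshold, so the top-scoring 52 +/+ and 96 F/F barcodes (0.8% per 1000 cells) were removed. Classes under 20 cells in a library were not compared. Intervals are exact at 95%. The code was tested on simulated data. The members and lists, including the rule for named genes (largest called changes and a mean of 5 FPKM or more, at most 4 a direction and list, or highest levels where none was called), were chosen with earlier results of these data known.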

Additional observations from a re-analysis of the deposited data

Results flagged for a closer look

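Of 20 groups of 4 to 10 libraries examined for a library far from the others, 3 had one, and chance alone marks about 1 group in 20. That rate does not hold for the Phlda2 groups below. Every other library there was listed at 0, so any single value above 0 would be marked. Igf2 was at 25.14 FPKM in +/+ 8-week replicate 2, the highest of 5, where the other libraries had a median of 13.5 FPKM. Phlda2 was at 0.25 FPKM in +/+ 8-week replicate 1 and listed at 0 in the other 4. Phlda2 was at 0.34 FPKM in D/D 8-week replicate 2 and listed at 0 in the other 5.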

How the results depend on the processing

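Under every alternative run, 0 members were called between genotypes and 9 of 9 between 8 weeks and E16.5. At E11.5, 2 genes were called with the replicate block and 24 in a single fit of all 25 libraries; the Y-linked covariate gave Dlk1 0.26, and leaving out both libraries with hepatocyte markers (added after seeing the data) gave Cdkn1c −0.010. At E16.5, 2 genes were called with a pseudocount of 0.1 and 3 with the Y-linked covariate, which gave H19 0.038, Dlk1 0.092, Meg3 −0.024 and Mest −0.019. At 8 weeks, the replicate block gave Igf2 0.079, H19 0.027, Cdkn1c −0.14 and Grb10 0.092, the covariate gave Igf2 0.025, and a term for the 2 sets gave Igf2 0.024, Cdkn1c −0.41 and Grb10 0.10. The block changed no call of a member between genotypes, and from E11.5 to E16.5 it also called Grb10 lower (−0.44, limma adjusted p = 0.0275). From E11.5 to E16.5, 4 members were called with no filter, and Meg3 was 0.27 in F/F libraries. The stage difference of the F effect had 2 genes called with a pseudocount of 0.1, 3 with no filter and 6 in the single fit. Of the 11 single-cell pairs past 1.5-fold, 7 were higher and 4 lower in F/F. There were 7 and 2 with doublets kept, 6 and 7 with members among the variable genes, and 3 and 3 (6 pairs) after thinning. Thinning also left fewer pairs with 200 UMIs. Mest in atrial and Rgs5-led cells, Meg3 in erythroid-like cells and H19 in immune-like cells kept ratios past 1.5-fold. They had under 200 UMIs after thinning and so were not counted. Dlk1 in cushion mesenchyme-like cells fell short of 1.5-fold. The causes were not tested.

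Leaving out 1 library at a time gave 1 to 2 genes called at E11.5 (Dlk1 −0.73 to 0.33, Grb10 −0.17 to 0.17, Plagl1 −0.10 to 0.12), 0 to 2 at E16.5 (Grb10 −0.047 to 0.11, H19 −0.14 to 0.020, Meg3 −0.011 to 0.27, Peg3 −0.22 to 0.076, Plagl1 −0.033 to 0.023), and 1 to 9 for the stage difference (Dlk1 −0.43 to 0.63, Grb10 −0.16 to 0.19, Plagl1 −0.14 to 0.085). At 8 weeks Cdkn1c ran from −0.19 to 0.22, Grb10 −0.18 to 0.044, H19 −0.55 to 0.021, Igf2 −0.21 to 0.051 and Mest −0.32 to 0.014. From E11.5 to E16.5, 2 to 4 members were called. Read depth is unknown for FPKM.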
